A study of Homo sapiens with 3 samples.

Results

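Complement is a system of serum and cell-surface proteins that marks and lyses cells, and the 9 genes described here code for 5 of its components and 4 of its regulators. They are C3, CFB, CFI, C1R and C1S on the component side, CFI being a protease that also acts as a regulator, and CD46, CD55, CD59 and CLU on the regulator side. All 9 were found by symbol among the 26485 entries of the count table. The set was put together with the levels of these genes already known, so levels and their order are given as a description and without a test.

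Messenger RNA was sequenced from CAMA1, a human luminal breast cancer line grown in culture, whose labels give it as ER+ (estrogen receptor positive) and FGFR1-amplified. All libraries came from 1 group of control cells at a passage below 10, kept for 48 h in medium lacking estradiol, with no treated group and no added agent named. The 3 libraries, called biological replicates, summed to between 26473939 and 30745412 counts, and nothing in the labels says whether the cultures or sequencing runs were shared, so p-values here speak only of how far these libraries differ, which may be technical. Of the luminal epithelial markers examined, 8 of 8 were at 10 TPM or above, led by KRT19, beside 47.9% of protein-coding genes. In the fibroblast list 2 of 7 reached 10 TPM, COL3A1 and COL1A1. At least 10 counts in each library were held by 67.4% of protein-coding genes. In the macrophage and liver lists 1 gene each did so, CD68 and ALB, and in the endothelial list none.

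Complement can be started by antibody through C1q with the proteases C1r and C1s, by lectins, or by the alternative pathway, in which factor B bound to C3 forms the enzyme that cleaves more C3. Cells protect themselves with membrane regulators: CD55 breaks up the C3-cleaving enzymes, CD46 is a cofactor for the cleavage of C3b by factor I, and CD59 blocks the assembly of the membrane attack complex. The liver makes most of the circulating components, although epithelial cells can make some of them when exposed to cytokines.

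With CFI counted as a component, the 4 regulators of the set stood higher in CAMA1 cells than its 5 components. Of the components, CFB and C1R were at moderate levels and C3 and C1S were near the detection limit. CFI, which also acts as a regulator, had no counts, so the order does not hold if CFI is counted as a regulator. Nor were complement regulators at large mostly expressed. Of 14 soluble and 11 membrane regulator genes in wider lists, 1 and 5 had at least 10 counts in each library, beside 67.4% of protein-coding genes. These lists include members of the set. The 1 soluble gene was CLU, with CFI among the others. The 5 membrane genes were CD46, CD55 and CD59 of the set, and SUSD4 and THBD outside it. Levels are in TPM, a gene's share of all transcripts after division by its length. The 4 regulator genes CLU, CD46, CD59 and CD55 had means of 44.5 to 319 TPM, whereas no component averaged more than the 11.7 TPM of CFB. In order, the means were highest for CLU, then CD46, CD59, CD55, CFB, C1R, C3, C1S and CFI. The libraries of CLU did not overlap those of CD46, nor did those of CD59 overlap those of CD55. The values of CFB overlapped those of C1R, and the values of C3 overlapped those of C1S. Of the 9 genes, 7 had at least 10 counts in each library, a share to be set beside 67.4% of the 19024 protein-coding genes, and 5 had a mean of 10 TPM or above, beside 47.9%. Because the members were picked on their levels, nothing is read from these shares.

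**Figure D1:**
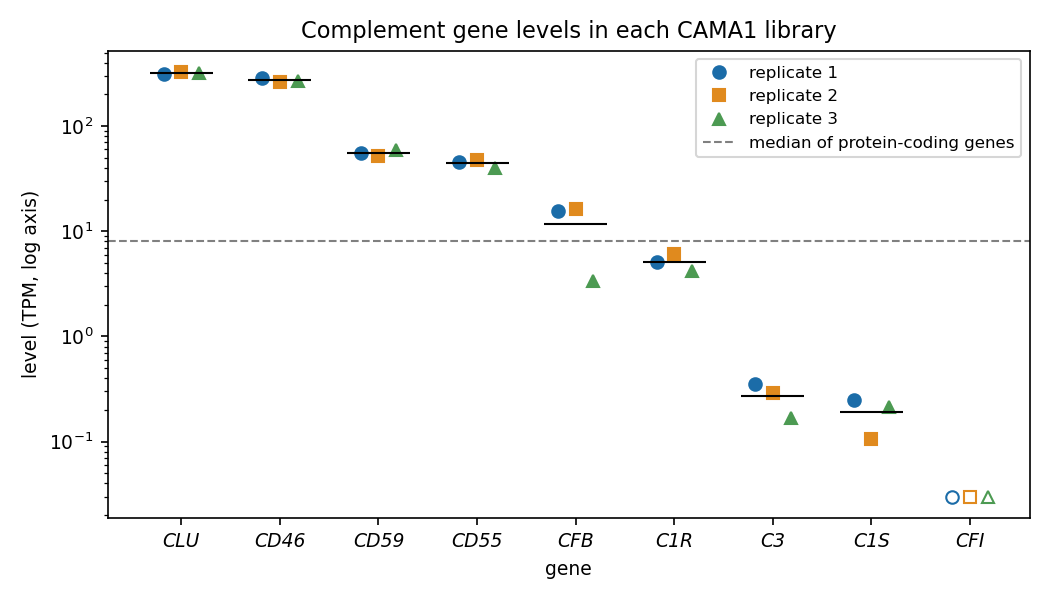
Level of each complement gene in TPM on a log axis, with 1 symbol for each of the 3 libraries and a black line at the mean; open symbols at the bottom stand for 0 counts and the dashed line is the median of protein-coding genes (8.09 TPM). CLU, CD46, CD59 and CD55 lie above 40 TPM in every library. CFB has 1 library far below the others. C3, C1S and CFI, which also acts as a regulator, lie below 1 TPM.

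CD46, the membrane cofactor protein, had 9654, 8935 and 10709 counts in replicates 1, 2 and 3. Its levels were 287, 264 and 269 TPM (273 ± 12.3 TPM, SD, n = 3), which placed it at rank 534 among protein-coding genes. Replicate 1 was the highest and replicate 2 the lowest, and the 3 values lay close together. The gene spans chr1:207752038-207795516 on hg38, on the plus strand, with 14 separate exon blocks.

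CD55, the decay-accelerating factor, had 45.9, 47.4 and 40.1 TPM in replicates 1 to 3 (44.5 ± 3.89 TPM, SD, n = 3) and ranked 4474. CD59, the inhibitor of the membrane attack complex, had 55.6, 52.3 and 59.6 TPM (55.8 ± 3.62 TPM) and ranked 3644. Replicate 3 was the lowest library for CD55 and the highest for CD59, so the libraries did not share an order across these regulators. CD46 exceeded CD55 by 2.62 ± 0.14 and CD59 by 2.29 ± 0.10 as log2 ratios of TPM within each library (SD, n = 3), each in 3 of 3 libraries. CD59 exceeded CD55 by only 0.33 ± 0.22. Without division by length, CD59, whose exons add up to 8080 bases, exceeded CD55 by 1.55 instead, and CD46 exceeded CD59 by 1.04. CD55 lies on chr1:207321472-207360966 and CD59 on chr11:33703010-33736479.

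The sum of the 3 membrane regulators was 389, 364 and 368 TPM in replicates 1 to 3, against 21.3, 22.6 and 7.88 TPM for the sum of the 5 components. The log2 ratio was 4.58 ± 0.84 (SD, n = 3), with every library above 0. It was highest in replicate 3, at 5.55, where the component sum was lowest.

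CD55 and CD46 belong to the cluster of complement regulator genes on chromosome 1, and they were the expressed genes of that stretch. Of the 7 protein-coding genes from C4BPB to CD46, the remaining 5 had at most 7.09 counts in any library. CR1, complement receptor 1, had 2.80, 6.47 and 7.09 counts. CR2, the receptor on B cells for C3 fragments, had 3, 1 and 1 counts, and the CR1-like gene CR1L had none. C4BPA and C4BPB, which code for the chains of a soluble inhibitor made in liver, had at most 1 count in any library. On the far side of CD46, CD34 had no counts and PLXNA2 22, 23 and 19. Where a library held no count, up to 3 counts are still possible, a one-sided limit that is not the same bound as the two-sided Poisson intervals given for C3. Both cover counting error only.

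**Figure D2:**
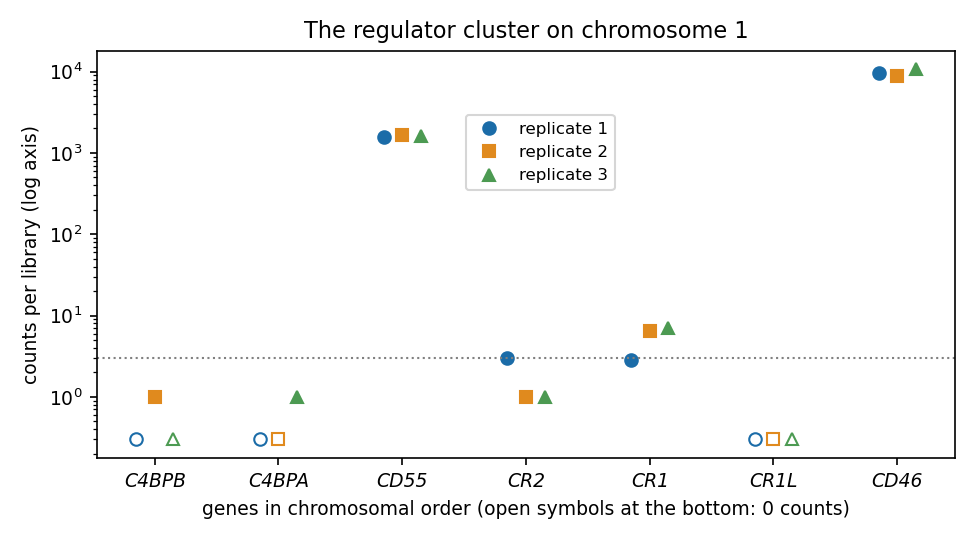
Counts per library on a log axis for the 7 protein-coding genes of the regulator cluster in chromosomal order, with 1 symbol for each replicate; open symbols at the bottom stand for 0 counts and the dotted line marks 3 counts. CD55 and CD46 stand above 1500 counts in each library, while the other genes stay below 10.

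CD55 and CD59 are held in the membrane by a glycosylphosphatidylinositol (GPI) anchor, and genes for making and attaching that anchor were expressed. Of 27 genes in that list, 26 had at least 10 counts in each library and 25 reached 10 TPM, beside 67.4% and 47.9% of protein-coding genes. Their median was 43.5 TPM, that of protein-coding genes 8.09 TPM. GPAA1 and PIGT, both subunits of the transamidase that attaches the anchor, stood at 208 ± 9.52 and 173 ± 7.39 TPM. DPM1 and DPM3, of the enzyme that supplies the mannose donor, stood at 159.7 ± 3.89 and 88.3 ± 1.76 TPM. PIGA, which acts in the first step, stood lower at 12.8 ± 1.52 TPM. PIGY is listed at 0, but its entry shares all its exon bases with PYURF, also listed at 0, so no level can be given for it. Parts of PIGB, PIGF and PIGH overlap genes on the opposite strand, and the strand setting of the counting is not given in the sources used here.

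CLU, clusterin, a secreted chaperone that also inhibits the terminal complement complex, was the highest gene of the set. It had 10243, 10793 and 12313 counts and 313, 327 and 317 TPM in replicates 1, 2 and 3 (319 ± 7.33 TPM, SD, n = 3), at rank 423. CLU exceeded CD46 by a log2 ratio of 0.23 ± 0.09, in 3 of 3 libraries, and the shares of CLU and CD46 in the summed TPM of the 9 genes were 45.0% and 38.5%. The gene lies on chr8:27596917-27614811, on the minus strand. Its nearest protein-coding genes were lower, with EPHX2, an epoxide hydrolase gene, at 35.4 ± 2.12 TPM and the scavenger receptor gene SCARA3 at 5.38 ± 0.624 TPM. Among 14 genes of soluble regulators, CLU was the only one with 10 counts in each library. SERPING1, the C1 inhibitor gene, had 3, 7 and 6 counts.

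CFI, which codes for the protease that degrades C3b with the help of CD46, had 0 counts in all 3 libraries. The limit of 3 counts corresponds to 0.140, 0.139 and 0.118 TPM in replicates 1 to 3, so CFI was not detectable at this depth. Of protein-coding genes, 23.8% had at most 3 counts in every library. The genes beside CFI (chr4:109740692-109802179, minus strand) were expressed, with PLA2G12A, a phospholipase gene, at 56.5 ± 2.84 TPM on one side and GAR1, for a small nucleolar ribonucleoprotein, at 85.0 ± 6.13 TPM on the other.

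C3, the central component, was near the lower limit of detection. It had 18, 15 and 10 counts in replicates 1 to 3, or 0.354, 0.293 and 0.166 TPM (0.271 ± 0.0960 TPM, SD, n = 3). Its 95% exact Poisson intervals were 10.7 to 28.4, 8.40 to 24.7 and 4.80 to 18.4 counts, and all of them overlapped. C3 lies on chr19:6677835-6720682, minus strand, and the next gene upstream of it, GPR108, stood at 110.3 ± 2.64 TPM. C5, its homologue in the terminal pathway, had 89, 90 and 116 counts (1.70 ± 0.0929 TPM). C4A and C4B are listed at 0, but their entries share exon positions with one another and with C4B_2, so their 0 gives no level.

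C1R was expressed and its partner C1S was near the detection limit. C1R had 127, 151 and 122 counts, or 5.13, 6.06 and 4.16 TPM (5.12 ± 0.948 TPM, SD, n = 3). C1S, the protease that C1r activates, had 7, 3 and 7 counts, or 0.251, 0.107 and 0.212 TPM (0.190 ± 0.0747 TPM). Every library of C1R was above every library of C1S. Summed over libraries, 400 counts of C1R against 17 of C1S gave a 26.5-fold higher level per length for C1R, a description of these libraries. The genes are neighbours on chromosome 12, C1S at chr12:7060676-7071031 on the plus strand and C1R at chr12:7080211-7092447 on the minus strand. The C1r-like gene C1RL, next to C1R, stood at 3.11 ± 0.317 TPM, and LPCAT3, on the other side of C1S, at 46.2 ± 3.86 TPM. C1QA, C1QB and C1QC, the chains of C1q that C1r and C1s bind, had at most 1 count in any library.

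CFB, the factor B gene, was the most abundant component and the least even between libraries. It had 405, 423 and 103 counts in replicates 1, 2 and 3, or 15.6, 16.1 and 3.34 TPM (11.7 ± 7.23 TPM, SD, n = 3). Replicates 1 and 2 lay close together and replicate 3 lay far below both. The entry for CFB (chr6:31945944-31952084, plus strand, in the major histocompatibility complex) lies on 7 sequences, the main chromosome and alternate contigs. Its exons on chromosome 6 add up to 2627 bases, which were used here, while the deposited length was 17808 bases and gave 1.72 TPM. CFB exceeded C3 by a log2 ratio of 5.14 ± 0.78, in 3 of 3 libraries. The size of that ratio rests on low counts of C3 and on the length of CFB: it was 2.39 with the deposited length, 3.08 with a pseudocount of 1 TPM and 4.20 without division by length. Over C1R the ratio was 0.90 ± 1.06, above 0 in 2 of 3 libraries and below it in replicate 3, and with the deposited length it was −1.85.

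Variation between replicates was tested over the whole table. The members were chosen with their levels in these same libraries known, and the filter and the power of the Poisson test both depend on level. The number of members called is therefore a description and no result about the set. Counts relative to library size (CPM), scaled with TMM factors, were set against Poisson sampling in a chi-square test on 14453 genes that passed edgeR's filter on low counts, with Benjamini-Hochberg adjustment. Of these genes 41.6% varied beyond sampling, as did 6 of the 6 members that passed the filter; CFI, C3 and C1S did not pass it. Against the trended negative binomial dispersion, which allows for the usual spread between these libraries, 1.22% of genes were called, and CFB was the only member among them.

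CFB had 15.1, 15.9 and 3.39 CPM, a 4.70-fold range, where the median gene had a 1.14-fold range. Its adjusted p was 9.65e-55 against Poisson sampling and 1.74e-08 against the negative binomial dispersion (edgeR scaling and dispersion, chi-square test). Counting CFB itself, 9 genes had as wide a range and 12 had a negative binomial adjusted p as small. The call rests on replicate 3: without it the range was 1.05-fold and the adjusted p was 0.78 against Poisson sampling and 0.999 against the negative binomial dispersion. The 5 other tested members had ranges of 1.06-fold for CLU, 1.07 for CD46, 1.15 for CD55, 1.17 for CD59 and 1.42 for C1R. Their negative binomial adjusted p was 1 in each case, which does not show that the libraries were equal. Their calls against Poisson sampling were not stable to leaving out a library: that of CLU was lost without replicate 1 (adjusted p = 0.913), that of CD46 without replicate 2 (0.184), those of CD55 and CD59 without replicate 3 (0.525 and 0.176) and that of C1R without replicate 2 (0.316) or replicate 3 (0.436).

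**Figure D3:**
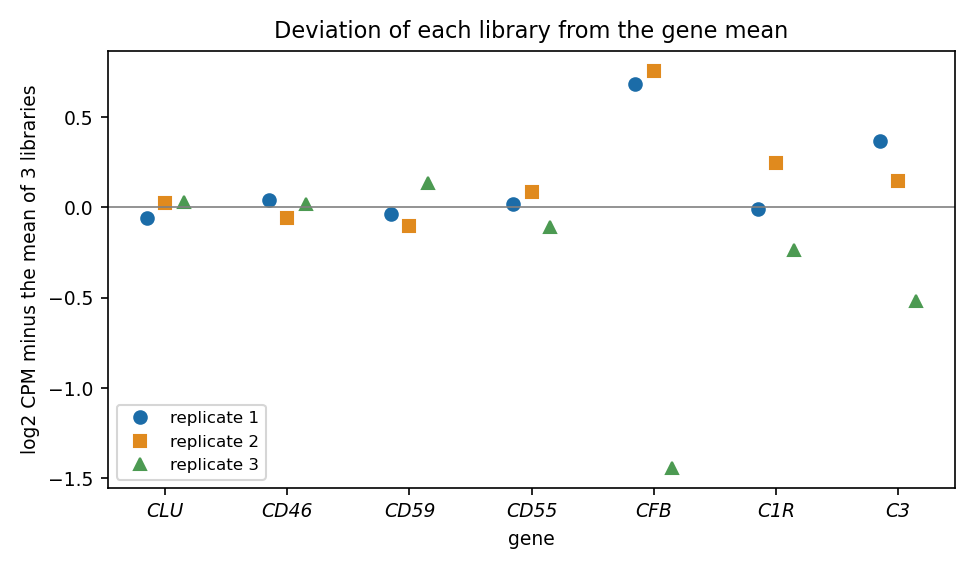
Deviation of each library from the mean of its gene in log2 CPM (prior count 2), 1 symbol for each replicate, for the 7 complement genes with at least 10 counts in each library. CFB in replicate 3 lies over 1.4 below its mean, farther than any other value shown.

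The neighbouring genes of CFB had narrower ranges between libraries. C2, its paralogue in the classical pathway and its neighbour, had 76.3, 84.0 and 60.5 counts and 1.96, 2.14 and 1.31 TPM in replicates 1 to 3. NELFE, for a subunit of negative elongation factor, had 240, 239 and 207 TPM, and SKIV2L, for an RNA helicase, had 82.1, 82.7 and 84.2 TPM. Among 111 entries at 2 CPM or above that lie on chromosome 6 and on alternate contigs of the complex, the median log2 difference of replicate 3 from the mean of replicates 1 and 2, without TMM factors, was −0.02. CFB was the lowest of them at −2.22, and CDSN the highest at 0.902. TNF, UBD and LTB, among the same entries, were also low in replicate 3, at −1.84, −1.79 and −1.09.

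Genes of cytokine signalling that are known to act on complement genes were mostly expressed, and 3 of them also varied between libraries. Of 23 genes in that list 20 had at least 10 counts in each library, beside 67.4% of protein-coding genes. The receptors and factors at the top were RELA at 165.6 ± 1.63 TPM, STAT3 at 136 ± 7.64 TPM, IL1R1 at 86.7 ± 8.51 TPM and IL6ST at 83.9 ± 21.6 TPM. Of the cytokine genes in the list, IL1B, IL6 and IFNG had no counts in any library. TNF, which codes for tumour necrosis factor, had 9.64, 11.02 and 2.93 CPM in replicates 1 to 3, a 3.77-fold range (negative binomial adjusted p = 4.8e-05). IRF1, an interferon-induced transcription factor gene, had 20.8, 20.9 and 11.5 CPM (adjusted p = 0.0267), and IL6ST, the shared receptor chain of the interleukin-6 family, 331, 323 and 208 CPM (adjusted p = 0.00716), both from the chi-square test with edgeR's dispersion. All 3 were lowest in replicate 3, like CFB, and they were the genes called among 20 tested in the list, beside 1.22% of all genes tested; the list was not tested against other genes. Without replicate 3 none of the 3 was called, with a negative binomial adjusted p of 0.999 each and 0.407 for TNF, 0.987 for IRF1 and 0.33 for IL6ST against Poisson sampling (edgeR). Of these 20, 13 were lowest in replicate 3, as were 5758 of the 14453 genes tested.

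Levels of other cell types' markers are given beside CFB, since fibroblasts, macrophages and liver cells also make complement proteins. The 7 fibroblast markers summed to 182, 193 and 148 TPM in replicates 1 to 3, nearly all from COL3A1, while COL1A2, DCN and LUM had no counts. The 7 macrophage markers summed to between 2.97 and 4.06 TPM, most of it from CD68 at 3.41, 3.30 and 2.54 TPM in replicates 1 to 3, with TYROBP at 0 and PTPRC at 3, 3 and 2 counts. The 6 liver markers summed to 1.83, 1.99 and 1.76 TPM, with ALB at 29, 17 and 36 counts and APOA1 at 0, 0 and 1. The 5 endothelial markers summed to 0.317, 0.178 and 0.0898 TPM, with KDR at 0, 0 and 1 counts. The fibroblast, macrophage, liver and endothelial sums were all lowest in replicate 3. The luminal epithelial sum was highest there, with 9305, 10272 and 11285 TPM in replicates 1 to 3. Single markers did not all follow their sums. ALB, the highest liver marker, was highest in replicate 3, and COL1A1 was nearly even at 10.7, 10.7 and 10.2 TPM. The endothelial sum rests on at most 11 counts per gene in any library. The part of these markers' cell types in the CFB result was not tested. In bulk RNA, fewer cells that express a gene and less RNA of it per cell cannot be told apart.

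Promoters differed between the members in their content of CpG, the dinucleotide that is dense in the promoters of many broadly expressed genes. RefSeq promoter sequences (GRCh38.p14) were used for 6 members, taking the 250 bases before the start site nearest to the gene start in the deposited table, on the gene's own strand; those of C3, C1S and CLU were not used here. CD46 had 19 CpG, CD55 and CD59 12 each, CFB 7, C1R 6 and CFI 1. Over 14282 protein-coding genes the median was 18 CpG, and 3.0% of promoters had fewer than CFI, 24.4% fewer than CFB and 52.1% fewer than CD46. The 3 membrane regulators fell in the class of 10 to 19 CpG, in which 79.5% of genes had at least 10 counts in each library. CFB and C1R fell in the class of 4 to 9 CpG, with 49.2%, and CFI in the class of 0 to 3, with 26.2%. The median of genes with at least 10 counts in each library was 21 CpG, above all 6 members. In the class of 20 CpG or more, which held none of the 6, the share was 86.1%. These shares describe all genes of a class and are no test of the members.

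Promoters of 3 genes are shown because they span the range of CpG from the abundant regulators to the undetected protease, with each CpG in capitals and the base before the start site at the right end. They are at chr1:207751788-207752037 on the plus strand for CD46, chr11:33736480-33736729 on the minus strand for CD59 and chr4:109802000-109802249 on the minus strand for CFI. The RefSeq start of CFI lies 180 bases downstream of the gene start in the deposited table, and those of CD46 and CD59 are the same in both. CD46 has 2 RefSeq promoters and CD59 has 4, so their CpG counts hold for the start used. The bases just after the start were found in 0 annotated (GENCODE) transcripts of CD46, 2 of CD59 and 4 of CFI. The start of CD46 is therefore less certain.
CD46: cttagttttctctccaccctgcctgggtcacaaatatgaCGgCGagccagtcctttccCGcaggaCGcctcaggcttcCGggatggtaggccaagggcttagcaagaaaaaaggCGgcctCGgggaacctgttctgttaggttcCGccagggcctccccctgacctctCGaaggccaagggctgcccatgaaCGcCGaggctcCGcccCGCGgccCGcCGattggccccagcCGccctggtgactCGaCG
CD59: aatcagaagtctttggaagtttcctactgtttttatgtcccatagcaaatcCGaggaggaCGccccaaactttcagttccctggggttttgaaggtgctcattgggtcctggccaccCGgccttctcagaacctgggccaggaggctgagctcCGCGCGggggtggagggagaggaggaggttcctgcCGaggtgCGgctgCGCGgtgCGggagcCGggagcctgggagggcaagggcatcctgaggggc
CFI: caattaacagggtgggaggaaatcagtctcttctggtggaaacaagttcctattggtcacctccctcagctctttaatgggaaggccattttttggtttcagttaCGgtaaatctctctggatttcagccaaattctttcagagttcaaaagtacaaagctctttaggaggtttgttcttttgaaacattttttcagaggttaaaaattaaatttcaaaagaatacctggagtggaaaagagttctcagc

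**Figure D4:**
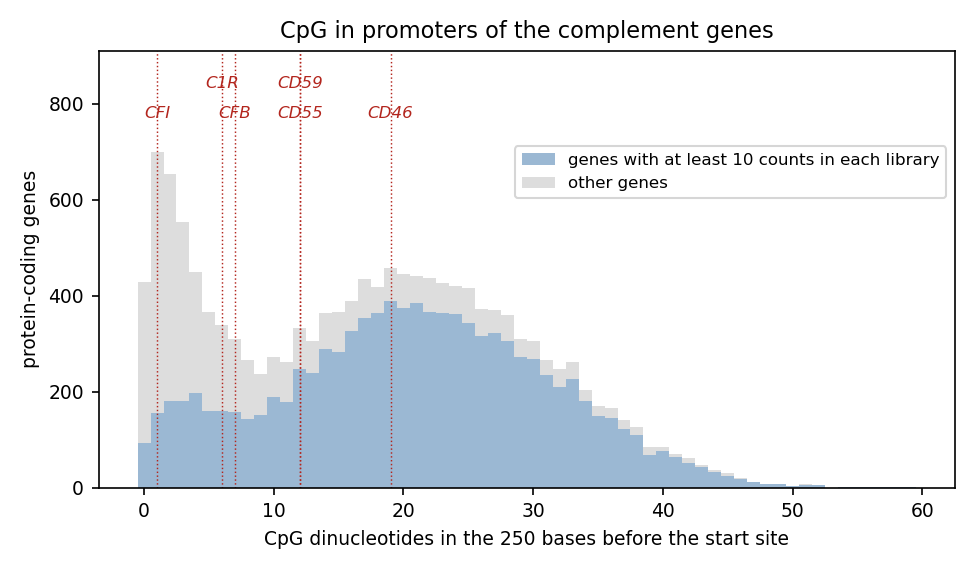
Number of protein-coding genes by the count of CpG dinucleotides in the 250 bases before the start site, split by whether the gene had at least 10 counts in each library, with dotted lines at 6 complement genes. CFI sits at the left peak with 1 CpG, C1R and CFB between the peaks with 6 and 7, and CD55, CD59 and CD46 at 12, 12 and 19.

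The CFB promoter is shown because CFB varied most between libraries, and it was searched for motifs of the factors that such cytokines act through. Letters searched on both strands were GGGA and CC with any 4 bases between them for NF-kB, TTCNNNGAA for the GAS element, GAAA repeated after any 2 bases for the core of the interferon-stimulated response element, TTGCNNAA for C/EBP, TATAAA for the TATA box, CCAAT for the CCAAT box and GGGCGG for the GC box. Every match is in capitals and none overlaps another. The sequence is chr6:31945845-31946094 on the plus strand, and the RefSeq start that follows it lies 151 bases downstream of the gene start in the deposited table.
CFB: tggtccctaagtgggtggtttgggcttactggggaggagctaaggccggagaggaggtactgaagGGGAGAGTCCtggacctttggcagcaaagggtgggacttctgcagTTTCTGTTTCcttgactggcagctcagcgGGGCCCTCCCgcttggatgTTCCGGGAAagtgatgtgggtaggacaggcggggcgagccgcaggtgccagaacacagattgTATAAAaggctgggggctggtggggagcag

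From left to right the capitals mark an NF-kB match, an interferon response core, a second NF-kB match, a GAS match and TATAAA, whose first bases lie 185, 140, 111, 92 and 30 bases before the start site. Of all 14282 promoters, 26.2% held the NF-kB letters, 2.77% the interferon response core, 6.11% the GAS letters and 9.03% TATAAA. CD46 held 2 GC boxes and a CCAAT box, CD55 a GC box, CD59 a CCAAT box and a GAS match, C1R a C/EBP match and CFI a CCAAT box. GC box letters were in 57.6%, CCAAT in 34.5% and C/EBP letters in 7.20% of promoters. A match is a description of letters and no evidence of binding, and its absence says only that the letters are not in this window.

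Beyond the set, few complement genes were expressed. Of 61 complement genes in 7 role lists, 21 had at least 10 counts in each library and 8 were at 10 TPM or above. Leaving out the 9 members, these were 14 and 3 of 52, beside 67.4% and 47.9% of protein-coding genes. The 3 were C1QBP, CFD and C5AR2. C1QBP, which codes for a mostly mitochondrial protein that can bind C1q, stood at 112.7 ± 6.90 TPM, with 20.8% of its exon bases shared with RPAIN on the opposite strand. CFD, the protease that cleaves factor B, had 17.0, 19.4 and 27.8 TPM in replicates 1 to 3, with its highest level in replicate 3, where CFB was lowest. CFD was not called against the negative binomial dispersion (adjusted p = 0.378, edgeR). C5AR2, a receptor for C5a, had 24.3, 22.6 and 16.4 TPM.

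Few genes of the recognition step and of the terminal pathway were expressed. Of 10 recognition genes only FCN2, a ficolin gene, reached 10 counts in each library (4.38 ± 0.612 TPM). For 7, MBL2 among them, no library held more than 3 counts. The shares of protein-coding genes were 67.4% with at least 10 counts in each library and 23.8% with at most 3 in every library. Of the lectin proteases, MASP2 stood at 7.77 ± 0.506 TPM and MASP1 had no counts. Of 6 terminal pathway genes, C8G had 60, 59 and 71 counts (6.85 ± 0.0930 TPM) and the other 5, C6, C7, C8A, C8B and C9, had at most 0.5 counts in any library. Among membrane regulators outside the set, THBD, the thrombomodulin gene, stood at 4.68 ± 0.210 TPM and SUSD4 at 3.42 ± 0.916 TPM. C3AR1, the C3a receptor gene, had at most 1 count in any library.

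**Figure D5:**
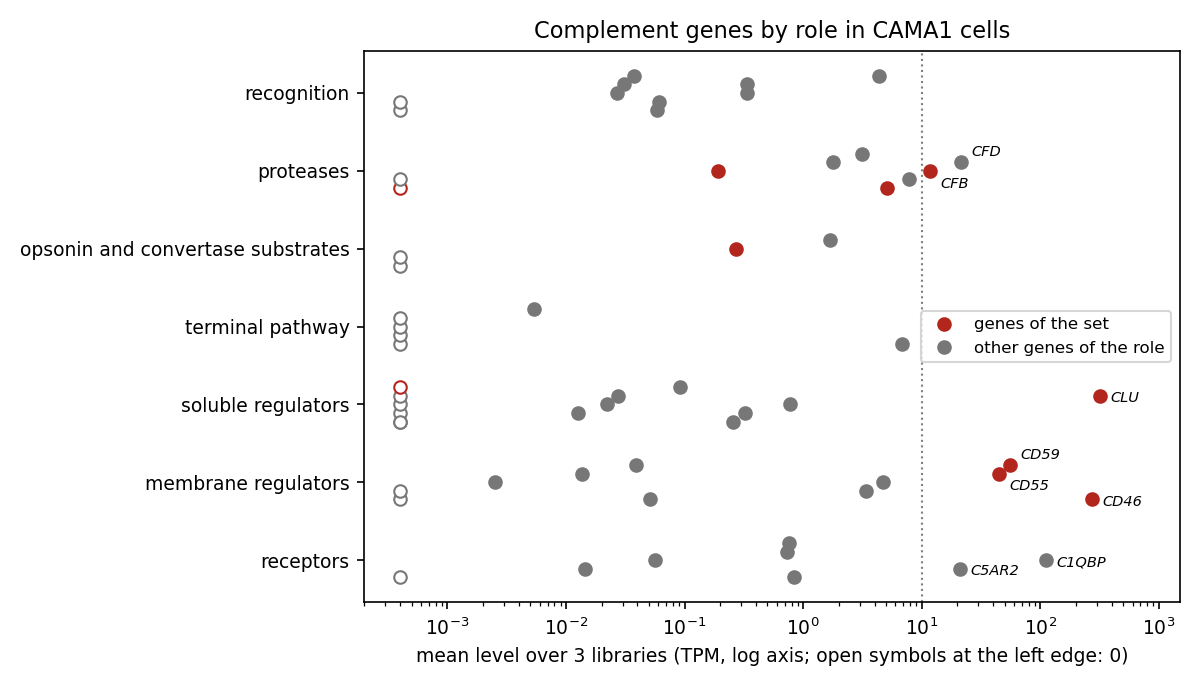
Mean level over 3 libraries in TPM on a log axis for the complement genes of 7 role lists, with the 9 members in red, open symbols at 0 and a dotted line at 10 TPM. Genes at 10 TPM or above are named: CFB and CFD among proteases, CLU, the 3 membrane regulators CD46, CD55 and CD59, and C1QBP and C5AR2 among receptors.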

How the data were processed

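Poly-A RNA libraries were prepared with a strand-specific mRNA kit and sequenced on an Illumina instrument, per the labels' protocols. The authors deposited expected counts per gene, with exon positions on hg38 and a gene length; 83.1% of non-zero values were whole within 1e-08. TopHat, Subread and featureCounts are named in the submitters' processing notes, without settings. The other values had fractions.

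TPM was computed from the deposited counts and lengths, with exon length on the main chromosome for CFB and for the other listed or neighbouring genes that lie on several sequences. Genes were matched to RefSeq biotypes by symbol (23758) or older symbol (1592), and 1135 had no match. Means are given with SD over 3 libraries. Ratios used a pseudocount of 0.01 TPM. Detection required 10 counts in each library. For variation between replicates, counts were rounded and analysed in edgeR 4.0.16 (R 4.3.3) with TMM factors of 1.01, 1.00 and 0.990. Its filter on low counts and an intercept-only design were used, at an adjusted p threshold of 0.05. Only the Poisson test was run on simulated data, drawn with Poisson sampling, which lack the wider spread of these libraries. The negative binomial test was not run on simulated data. Depth was 26473939, 26592335 and 30745412 counts. Alternatives covered gene length, CPM, pseudocount, count minimum, scaling with DESeq2 1.42.0 size factors or library totals, filter, dispersion and leaving out each replicate.

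The members and lists were chosen with earlier results of these data known. Named are the 9 members, up to 4 genes of each other list at 10 TPM or above, genes of a list never above 3 counts, and the nearest 2 protein-coding genes on each side of a member. Other genes were named after their values were seen.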

Additional observations from a re-analysis of the deposited data

How the results depend on the processing

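No paired analysis was possible because the series holds 1 group. With the deposited length for every gene, the log2 ratio of membrane regulators over components was 5.72 in place of 4.58, and that of CFB over C1R turned to −1.85; by construction, the deposited length of CFB sums 7 sequences. The median of the 9 member means, 11.7 TPM, was the level of CFB. With the deposited length it was 5.12 TPM, the level of C1R, and without 1 replicate 9.45 to 15.8 TPM, again that of CFB. The medians of the single libraries had an SD of 6.75 TPM, and of 0.402 TPM without replicate 3. The number of members detected was 6 to 8 under other minimums, and that of complement genes at 10 TPM or above 7 to 8. Calls of variation numbered 6018 against Poisson sampling (6 members) and 177 against the negative binomial dispersion (1 member). Leaving out 1 replicate gave 1174 to 5435 calls (2 to 5 members) against Poisson sampling, the lowest without replicate 3, and 86, 56 and 24 calls (1, 1 and 0 members) without replicates 1, 2 and 3 against the negative binomial dispersion, an alternative chosen after seeing the data; with 2 libraries fewer samples enter. CFB was called under every alternative except those without replicate 3. Without the filter on low counts, C1R was not called (adjusted p = 0.0615 from the chi-square test with edgeR scaling). Depth limits C3, C1S and CFI, whose counts were at most 18 in any library.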

Other observations

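Among 12346 genes at 2 CPM or above, CFB had the third lowest value in replicate 3 relative to replicates 1 and 2, on CPM without TMM factors. These genes were picked after their values were seen, so no test is given. The 2 genes below it were AOX1, an aldehyde oxidase gene, with 4.76, 5.49 and 0.813 CPM in replicates 1, 2 and 3, and CD74, the invariant chain of class II antigen presentation, with 6.12, 7.63 and 1.11 CPM. The next were GBP1, a GTPase gene, with 3.99, 3.61 and 0.829 CPM, and MYCL, a MYC family gene, with 2.91, 3.05 and 0.748 CPM. TNF followed. All of these rest on replicate 3 alone.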
